A study of Mus musculus with 11 samples.

Results

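The hemidesmosome and laminin-332 genes are the genes for the parts of the junction by which basal keratinocytes hold on to the basement membrane. The members were taken by gene name from the table of normalized counts and are Col17a1, Itga6, Itgb4, Itga3, Itgb1, Lama3, Lamb3 and Cd151. All 8 had values, out of 19170 genes with values and 55414 genes listed. They were compared in the gingival epithelium of 11 langerin-DTR mice. These mice carry the diphtheria toxin receptor under the control of langerin, the C-type lectin by which Langerhans cells (LCs) are known, so that diphtheria toxin kills the cells that express it. All 11 mice carried this transgene, and by the labels the groups differed in what was injected. A vehicle, PBS, was given to 5 mice, and diphtheria toxin (DT) was given to 6 mice. The injections were intraperitoneal and weekly, were given over the weaning period from the third week after birth, and were followed by collection of the epithelium in adulthood. By the paper's flow cytometry, LCs depleted in this way came back gradually and were at their usual frequency by week 8 of life. The comparison asks whether the epithelium of adult mice that lacked LCs around weaning differs from that of mice that kept them.

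In the hemidesmosome, the integrin α6β4 (encoded by Itga6 and Itgb4) and the transmembrane collagen XVII (Col17a1) span the basal membrane of the keratinocyte. Inside the cell they are tied to keratin filaments through the plakins plectin (Plec) and BPAG1 (Dst), and outside they bind laminin-332, whose α3 and β3 chains come from Lama3 and Lamb3. The integrin α3β1 (Itga3 and Itgb1) binds the same laminin and is linked to actin, and the tetraspanin Cd151 associates with both laminin-binding integrins. In the gingiva this junction also attaches the junctional epithelium to the tooth. Dst and Plec are not among the 8 genes and are given beside them as their direct partners.

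The depth was between 17509328 and 24325513 reads per mouse, and each value is the count of reads on a gene divided by a size factor of the mouse, called a normalized count. Keratinocyte markers led, as the tissue label has it. The summed level of 4 basal keratinocyte markers was 271728 to 357019 normalized counts in PBS mice and 293234 to 335279 in DT mice. The 10 suprabasal markers summed to between 2335461 and 2587239. Fibroblast markers summed to 1104 to 1588 over all mice and the endothelial marker Pecam1 was between 39.3 and 98.0. Of the melanocyte markers, Tyr and Mlana are listed without a value. On the first principal component of the 500 most variable genes, which took 36% of the variance, PBS 3 and PBS 5 scored 17.2 and 20.9 while the other 9 mice lay between -12.9 and 10.5. The difference of each attachment gene between the groups is therefore also given without these 2 mice. Both are PBS mice and were picked by these same data, so leaving them out changes the mean and spread of 1 group only. Adjusted p-values without them are descriptions and not tests of the groups. Cd207, the gene for langerin, had 10.0 to 43.0 normalized counts in PBS mice and 15.8 to 21.6 in DT mice, a log2 difference of -0.19 (limma adjusted p = 0.853). Of 5 LC markers none passed the threshold used here, an adjusted p under 0.1, but none had a positive difference, 3 were lower in DT mice at an unadjusted p under 0.05 and the median difference was -0.50. Of 10 immediate early genes, 9 were higher in DT mice by limma at an adjusted p under 0.1, with a summed level of 26193 to 66260 normalized counts in PBS mice and 70438 to 111693 in DT mice.

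Positions are on GRCm38 with GENCODE M21. Itga6 lies on chromosome 2 from 71745616 to 71858416 (plus strand), and Itgb4 lies on chromosome 11 from 115974709 to 116008412 (plus strand). Itga3 is on the same chromosome from 95044474 to 95076801 (minus strand). Col17a1 is on chromosome 19 from 47646344 to 47692094 (minus strand), Itgb1 on chromosome 8 from 128685654 to 128733200 (plus strand) and Cd151 on chromosome 7 from 141467392 to 141471473 (plus strand). Lamb3 runs on chromosome 1 from 193207699 to 193343878 (plus strand). The reads of 3 members could in part belong to a gene on the opposite strand if counting ignored strand, since 7.66% of the exon bases of Itgb4, 7.04% of those of Cd151 and 1.83% of those of Lama3 are shared with such a gene. The genes opposite Itgb4 and Lama3 had no value. The gene opposite Cd151, Gm10575, averaged 15.4 normalized counts, where Cd151 averaged 1292.

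The 250 bases before the transcription start of RefSeq were read for the members with a RefSeq window (GRCm38.p6), which were 5 of the 8. The start can differ between annotations. By the GENCODE positions above, the Lamb3 window lies inside the gene, and the printed windows of Col17a1 and Itga3 reach into theirs. The first window of 4 of them is printed 5′ to 3′ on the strand of the gene, because these genes stand for the parts of the junction (collagen XVII, laminin β3, integrin α3 and tetraspanin). Capitals mark matches to the Sp1 box GGGCGG or the TATA box TATAAA on either strand.
Col17a1, chr19:47692043-47692292, minus strand, TATA boxes in capitals: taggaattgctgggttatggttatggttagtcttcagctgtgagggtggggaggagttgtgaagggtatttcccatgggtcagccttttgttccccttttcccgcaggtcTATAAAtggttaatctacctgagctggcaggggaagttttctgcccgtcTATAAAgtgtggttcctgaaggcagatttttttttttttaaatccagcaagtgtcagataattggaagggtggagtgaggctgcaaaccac
Lamb3, chr1:193301744-193301993, plus strand, no match: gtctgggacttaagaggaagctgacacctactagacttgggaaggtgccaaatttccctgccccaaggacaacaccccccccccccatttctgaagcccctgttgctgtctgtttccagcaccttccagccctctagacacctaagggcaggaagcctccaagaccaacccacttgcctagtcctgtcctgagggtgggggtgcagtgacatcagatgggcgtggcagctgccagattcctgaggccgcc
Itga3, chr11:95076715-95076964, minus strand, Sp1 boxes in capitals: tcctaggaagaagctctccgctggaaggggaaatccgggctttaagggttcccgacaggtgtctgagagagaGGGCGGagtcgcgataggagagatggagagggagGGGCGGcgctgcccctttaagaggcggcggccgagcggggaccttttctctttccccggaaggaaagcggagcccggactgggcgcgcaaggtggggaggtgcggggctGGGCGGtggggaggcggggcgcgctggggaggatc
Cd151, chr7:141467112-141467361, plus strand, Sp1 boxes in capitals: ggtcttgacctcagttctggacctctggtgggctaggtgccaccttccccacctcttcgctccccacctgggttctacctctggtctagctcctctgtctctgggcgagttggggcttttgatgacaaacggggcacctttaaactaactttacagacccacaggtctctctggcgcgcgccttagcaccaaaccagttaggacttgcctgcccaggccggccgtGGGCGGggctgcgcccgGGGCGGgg
The Col17a1 window held 2 TATA boxes, which begin 140 and 91 bases before the start, and had a GC content of 46.0%, below the median of 52.4% over all 32851 windows. A TATA box was in 12.4% of all windows. The Itga3 window was 67.6% GC and held 3 Sp1 boxes, 178, 144 and 35 bases before the start, and the Cd151 window held 2 Sp1 boxes, 25 and 8 bases before the start. The Itgb1 window was 68.0% GC with 1 Sp1 box, and an Sp1 box was in 32.7% of all windows. None of the windows of these 5 genes held the AP-1 motif TGANTCA, the binding motif of Fos and Jun proteins, which was in 6.75% of all windows. A match of letters is a description of the sequence and not a binding site.

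None of the 8 attachment genes changed between DT and PBS by limma, whose p-values were adjusted over the 19170 genes by Benjamini-Hochberg and read at a threshold of 0.1, where 0.558% of all genes (107) did. A single member, Lamb3, had an unadjusted p under 0.05, and 11.5% of all genes had one. Without PBS 4, Itga6 and Itgb4 had one as well, and so did Itga6 without DT 2 and without DT 4. The groups overlapped in each of the 8 genes, and 1.65% of all genes did not overlap. The fitted difference was positive in 7 of the 8 genes, and it was positive in 47.3% of all genes. The median difference of the members was 0.05 on the log2 scale and that of all genes was -0.01. In size the members' differences had a median of 0.05 (log2, without sign) against 0.09 over the 13477 genes that averaged 10 or more normalized counts. The members averaged from 1292 (Cd151) to 19558 (Col17a1) normalized counts, and genes of like abundance were not compared. These medians therefore do not show that the members were more stable than other genes. The paper describes the material as purified epithelial cells, and the libraries held both basal and suprabasal markers. Fewer basal cells and less RNA per basal cell therefore cannot be told apart in any of these values. Without PBS 3 and PBS 5 the number of genes past the threshold was 1967 (10.3% of those tested), and still none of the 8 members was among them.

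**Figure D1:**
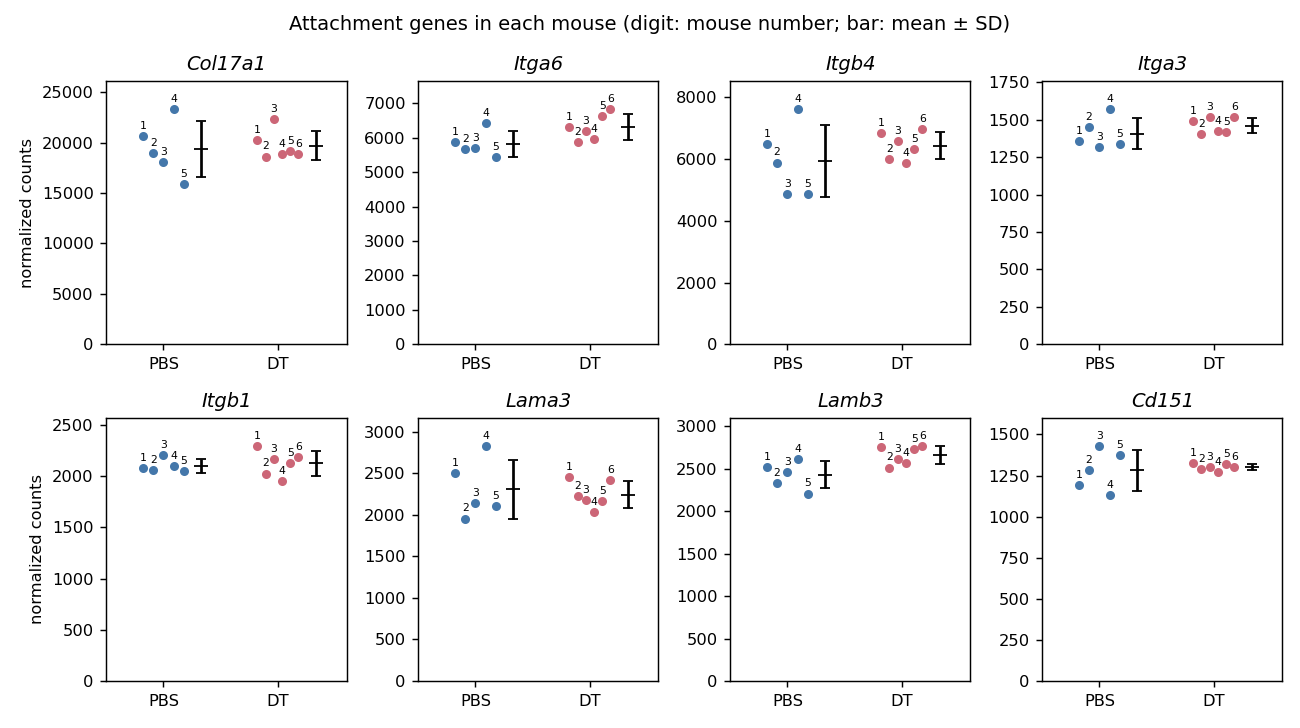
Normalized counts (vertical axes, from 0) of the 8 attachment genes in each of 5 PBS mice (blue) and 6 DT mice (red). Points carry the number of the mouse and the black bar is the mean ± SD. The groups overlap in every panel, as for Col17a1 with 15896 to 23330 in PBS mice and 18617 to 22376 in DT mice.

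Col17a1, the collagen of the hemidesmosome, was by far the most abundant member. PBS 1 to PBS 5 had 20650, 18937, 18080, 23330 and 15896 normalized counts of it, and DT 1 to DT 6 had 20300, 18617, 22376, 18845, 19205 and 18907. Both the highest mouse, PBS 4, and the lowest, PBS 5, were in the PBS group, and all 6 DT mice lay between them. The means were 19379 ± 2795 (SD, n = 5) and 19708 ± 1435 (SD, n = 6). The log2 difference was 0.03 (standard error 0.08, limma adjusted p = 0.919), which is 2.33% with a 95% interval from -9.64% to 15.9%. It was -0.09 without PBS 3 and PBS 5 (limma adjusted p = 0.525).

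Itga6 and Itgb4 encode the subunits of the hemidesmosomal integrin. For Itga6 the PBS mice, in the same order, had 5866, 5680, 5699, 6435 and 5438 normalized counts and the DT mice 6319, 5873, 6197, 5951, 6640 and 6828. All 6 DT mice were above the PBS mean of 5824 ± 374 (SD, n = 5), but PBS 4 lay above 4 of them. The difference was 0.11 on the log2 scale (standard error 0.06), or 8.22% with a 95% interval from -0.256% to 17.4%, with an unadjusted p of 0.0568 and a limma adjusted p of 0.446. Itgb4 had 6498, 5889, 4873, 7619 and 4859 normalized counts in the PBS mice and 6843, 6014, 6579, 5871, 6327 and 6973 in the DT mice. The PBS mice held both ends of its range, with PBS 3 and PBS 5 at the low end and PBS 4 at the high end. The log2 difference of Itgb4 was 0.13 (standard error 0.10, limma adjusted p = 0.651) and turned to -0.05 without PBS 3 and PBS 5, whereas that of Itga6 was 0.07 without them. Leaving out 1 mouse at a time moved the difference of Itgb4 between 0.06 (without PBS 5) and 0.23 (without PBS 4).

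Itga3 and Itgb1 encode the actin-linked laminin receptor. Itga3 had 1359, 1451, 1320, 1571 and 1336 normalized counts after PBS and 1490, 1403, 1517, 1425, 1420 and 1517 after DT. As for Col17a1, all DT mice lay inside the range of the PBS mice. Its log2 difference was 0.06 (standard error 0.05, limma adjusted p = 0.731), and 0.0034 without PBS 3 and PBS 5. Itgb1 had 2081, 2057, 2208, 2101 and 2048 normalized counts after PBS and 2295, 2024, 2167, 1954, 2123 and 2187 after DT. It was the only member that was less variable among PBS than among DT mice, and both the highest and the lowest value belonged to DT mice. The log2 difference of Itgb1 was 0.02 (standard error 0.05, limma adjusted p = 0.934), with a 95% interval from -5.89% to 8.69%, and 0.03 without PBS 3 and PBS 5 (limma adjusted p = 0.809).

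Of the laminin-332 genes Lama3 and Lamb3, the second stood nearest to the threshold. The PBS mice had 2520, 2336, 2462, 2616 and 2209 normalized counts of it, and the DT mice had 2756, 2515, 2614, 2571, 2737 and 2771. All 6 DT mice were above the PBS mean of 2429 ± 159 (SD, n = 5) and 3 of them were above every PBS mouse. The difference was 0.13 on the log2 scale (standard error 0.05), or 9.66% with a 95% interval from 1.66% to 18.3%. Its unadjusted p was 0.0202 and its limma adjusted p was 0.326, and without PBS 3 and PBS 5 the difference was 0.10 with an unadjusted p of 0.0846. Lama3 had 2504, 1955, 2140, 2832 and 2105 normalized counts after PBS and 2452, 2230, 2176, 2032, 2166 and 2420 after DT. It was the only member with a negative difference, -0.03 (log2, standard error 0.08, limma adjusted p = 0.931), and all DT mice were within the PBS range. The difference of Lama3 was -0.10 without PBS 3 and PBS 5 (limma adjusted p = 0.569).

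The tetraspanin Cd151 measured 1193, 1283, 1430, 1131 and 1373 normalized counts in the PBS mice, and 1324, 1290, 1301, 1270, 1320 and 1301 in the DT mice. Its order among the PBS mice was nearly the reverse of that of Itgb4, with PBS 3 highest and PBS 4 lowest. The DT mice lay close together, with a coefficient of variation of 1.52% against 9.64% among the PBS mice. Its log2 difference was 0.03 (standard error 0.06, limma adjusted p = 0.905), and without PBS 3 and PBS 5 it was 0.12 with an unadjusted p of 0.0369 and a limma adjusted p of 0.196.

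**Figure D2:**
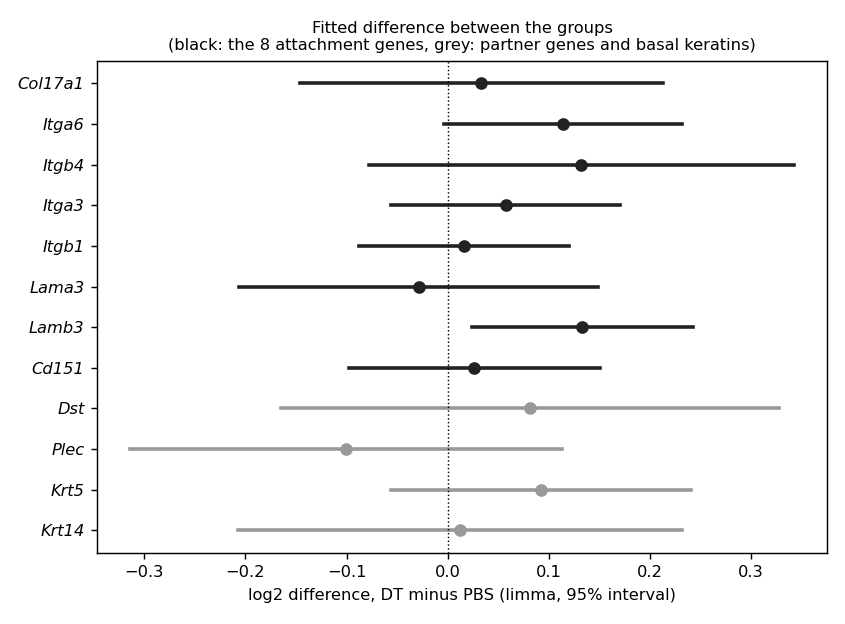
Fitted log2 difference between DT and PBS mice (horizontal axis, DT minus PBS, 0 dotted) with its 95% interval from limma, for the 8 attachment genes (black) and for Dst, Plec, Krt5 and Krt14 (grey). Of the genes drawn, Lamb3 is the only one whose interval leaves out 0, with a difference of 0.13, before adjustment over all genes.

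The spread between mice on the log2 scale was larger in the PBS group for 7 of the 8 members. The same was so for 69.3% of those 13477 genes, and the difference in spread was not tested. The coefficient of variation of Itgb4 was 19.6% among PBS mice and 6.89% among DT mice, that of Lama3 was 15.4% and 7.17%, and that of Col17a1 was 14.4% and 7.28%. Averaged over the 8 genes, PBS 4 stood 0.12 above and PBS 5 stood 0.14 below the mean of all mice on the log2 scale, while the DT mice lay between -0.05 and 0.09. Among the PBS mice, PBS 4 was the highest and PBS 5 the lowest for Col17a1, Itga6, Itgb4 and Lamb3 alike. These mice also held the highest and the lowest summed level of immediate early genes in their group, at 66260 and 26193 normalized counts. The summed level of LC markers was highest in PBS 3 and PBS 5, at 4032 and 3225 normalized counts, where the other PBS mice had 1727 to 2097 and the DT mice 1237 to 2313. Leukocyte markers were also highest in PBS 3 and PBS 5, at 489 and 378, against 120 to 298 in the other 9 mice. The part of these differences between mice in the level of the attachment genes was not tested.

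**Figure D3:**
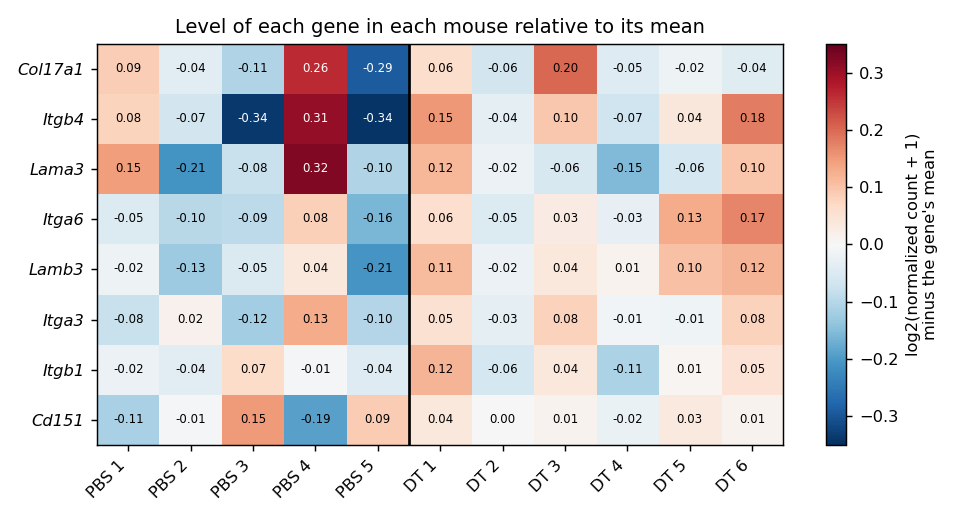
Level of each of the 8 attachment genes (rows) in each mouse (columns), as log2(normalized count + 1) minus the mean of the gene over 11 mice (colour scale and printed value). PBS mice stand left of the black line, where PBS 4 is high and PBS 5 low for Col17a1, Itgb4, Itga6 and Lamb3, and Cd151 runs the other way.

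Ratios between partners within a mouse do not depend on its size factor, and 9 of them were compared by an exact permutation test (two-sided, all 462 ways to split the mice, smallest possible p of 0.00216). None passed a Benjamini-Hochberg adjusted p of 0.05. The nearest was Lamb3 to Lama3, the β3 to the α3 chain of laminin-332, whose log2 ratio was 0.08 ± 0.15 (SD, n = 5) in PBS mice and 0.25 ± 0.08 (SD, n = 6) in DT mice (exact p = 0.0476, adjusted p = 0.409). The difference of this ratio was 0.16 with all mice and 0.20 without PBS 3 and PBS 5 (exact permutation test, adjusted p = 0.357). The log2 ratio of Itgb1 to Itga6 was -1.47 ± 0.09 and -1.57 ± 0.07 (exact p = 0.0909, adjusted p = 0.409). The subunits of the hemidesmosomal integrin, Itgb4 to Itga6, had a log2 ratio of 0.01 ± 0.20 after PBS and 0.03 ± 0.07 after DT (exact p = 0.835). The difference of the Itgb4 to Itga6 ratio between DT and PBS was 0.02 on the log2 scale with all mice and -0.12 without PBS 3 and PBS 5, and passed the test in neither case. Relative to the mean of Krt5 and Krt14, the keratins of the basal layer, none of the 8 genes differed between the groups (adjusted p = 0.95 for each, exact permutation test). On this scale the differences ran from -0.08 for Lama3 to 0.08 for Lamb3. Without PBS 3 and PBS 5 the difference of Col17a1 relative to these keratins went from -0.02 to -0.19 (exact permutation test, adjusted p = 0.0952). That of Lama3 went to -0.20 (exact permutation test, adjusted p = 0.438). With these mice left out there were fewer than 462 splits. A single gene or ratio could then not reach an adjusted p of 0.05 even at the most extreme split, so nothing is concluded from not passing there.

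Between mice, the 21 pairs among the 7 attachment genes other than Cd151 all had a positive Pearson r over the 11 mice, from 0.249 to 0.919 with a median of 0.571. As a description of the same table, 8.72% of all pairs among the 10019 genes that averaged 100 or more normalized counts had an r at or above this median, and 50.5% were positive. Within the 6 DT mice alone, the lowest r of the 21 pairs was -0.00815, for Col17a1 and Itga6, and the others were positive. These were not tested. Among the PBS mice not all pairs rose together. There Itgb1 was highest in PBS 3, where Itga3 was lowest and Itgb4 was near its lowest. Over the 11 mice, the r of Col17a1 and Itga6 went from 0.531 to 0.184 without PBS 4 and PBS 5. Of 28 pairs computed over the 8 members, 9 passed an adjusted p of 0.05 with 100000 permutations, and 4 did so without the 2 mice farthest from the median of the first gene. None of the pairs with Itgb1 was among those that passed. The closest pair was Itga6 and Lamb3, an integrin subunit and a chain of its ligand, with r = 0.919 (permutation p = 4e-05, adjusted p = 0.00112) and rho = 0.964 (permutation p = 3e-05, adjusted p = 0.00084). Without DT 5 and DT 6 its r was 0.909, and on deviations from the group means it was 0.879. Itga6 and Itgb4, which pair in 1 receptor, had r = 0.792 (permutation p = 0.00333, adjusted p = 0.0233) and rho = 0.791 (permutation p = 0.00567, adjusted p = 0.0265), and r = 0.898 without DT 5 and DT 6.

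The subunits of the other receptor did not show this. Itga3 and Itgb1 had r = 0.254 (permutation p = 0.445, adjusted p = 0.479) and rho = 0.245 (permutation p = 0.467, adjusted p = 0.503), and r was 0.612 without PBS 3 and PBS 4. Itga3 was instead closest to Itgb4, with r = 0.858 (permutation p = 0.0007, adjusted p = 0.0098) and rho = 0.8 (permutation p = 0.00451, adjusted p = 0.0256), and r was 0.718 without PBS 3 and PBS 5 (adjusted p = 0.163). The laminin chains Lama3 and Lamb3 had r = 0.486 (permutation p = 0.131, adjusted p = 0.185) and rho = 0.582 (permutation p = 0.067, adjusted p = 0.171). The r of Lama3 and Lamb3 was 0.689 without PBS 1 and PBS 4. Col17a1 and Itgb4 had r = 0.826 (permutation p = 0.00217, adjusted p = 0.0203) and rho = 0.8 (permutation p = 0.00457, adjusted p = 0.0256). Without PBS 4 and PBS 5 their r was 0.591 and did not pass (permutation test, adjusted p = 0.246).

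Cd151 went against the other members in this respect. Its r was negative with 6 of the 7, and lowest with Itgb4, at -0.74 (permutation p = 0.00967, adjusted p = 0.0409), where rho was -0.4 (permutation p = 0.226, adjusted p = 0.301). Without PBS 3 and PBS 5 the r of Cd151 and Itgb4 was -0.483 (permutation test, adjusted p = 0.354). The relation kept its sign but did not pass with these mice left out, when fewer mice remained. Within the 6 DT mice alone Cd151 varied little, with a coefficient of variation of 1.52%. Cd151 averaged 1301 normalized counts in the DT mice, and 1 read was worth between 0.845 and 1.15 normalized counts in them. The part that the noise of counting reads had in so small a spread was not tested. There the r of Cd151 was positive with all 7 genes, from 0.326 with Col17a1 to 0.863 with Itgb1. None of these 7 relations passed the adjustment (exact permutation test, smallest p = 0.0319, adjusted p = 0.224 for Itgb1, whose rho was 0.771 with exact p = 0.103 and adjusted p = 0.36). Correlations were given only for 6 mice or more, so none is given for the 5 PBS mice alone, in which Cd151 ran the other way, highest in PBS 3 and PBS 5 where Itgb4 was lowest, and lowest in PBS 4 where Itgb4 was highest.

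**Figure D4:**
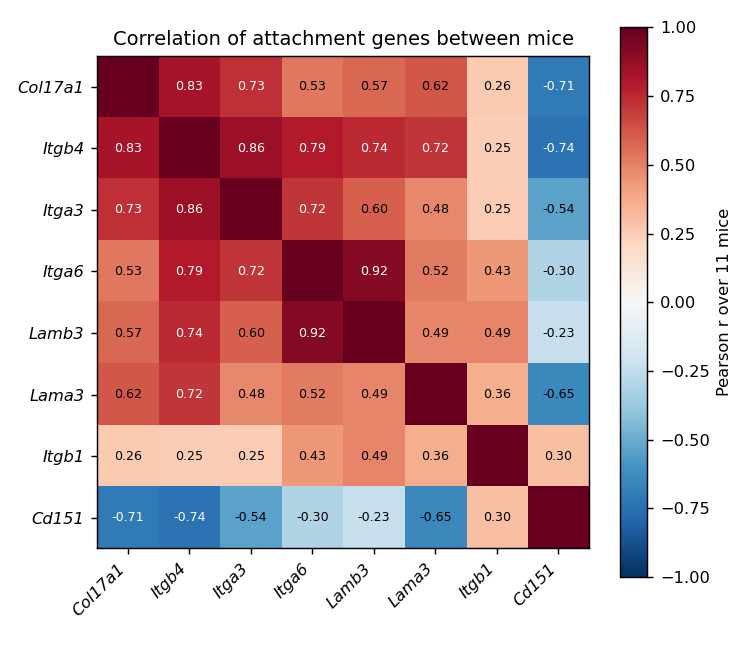
Pearson r over 11 mice (colour scale and printed value) between log2 levels of the 8 attachment genes (rows and columns). Pairs without Cd151 are positive, up to 0.92 for Itga6 and Lamb3, and Cd151 is negative with all but Itgb1.

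Levels between genes were compared as normalized counts per kilobase of all annotated exons, over the 11 mice. Col17a1 led with 3254 ± 340 (mean ± SD), followed by Itgb4 with 886 ± 120, Itga6 with 674 ± 48.2, Itgb1 with 518 ± 23.5 and Cd151 with 472 ± 29.2 normalized counts per kilobase. Lamb3 had 386 ± 26.5, Itga3 252 ± 14.2 and Lama3 212 ± 23.7 normalized counts per kilobase. Col17a1 was 3.67 times as high as Itgb4, with no overlap between mice. The ranges of Itgb4 and Itga6, Itgb1 and Cd151, Cd151 and Lamb3, and Itga3 and Lama3 overlapped over mice, although within each of the 11 mice the first was the higher. The basal keratins lay far above, with 113790 normalized counts per kilobase for Krt14 and 40322 for Krt5. Per kilobase of the longest transcript the order changed, with Itga6 at 1412 above Itgb4 at 1001 and Cd151 at 693 above Itgb1 at 554 normalized counts per kilobase, while Col17a1 stayed first and Lama3 was the lowest member on both scales. For Lama3 the scales are nearly the same, with 10745 bases of all exons and 10548 of the longest transcript. It has 2 annotated transcripts, and the other was not used as a length. Which of them the reads came from was not tested, so its place in the order depends on the length used. The methods trim reads as for libraries of transcript 3′ ends while the labels name a whole-transcript kit, and for 3′ end libraries a level per kilobase would understate long genes.

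**Figure D5:**
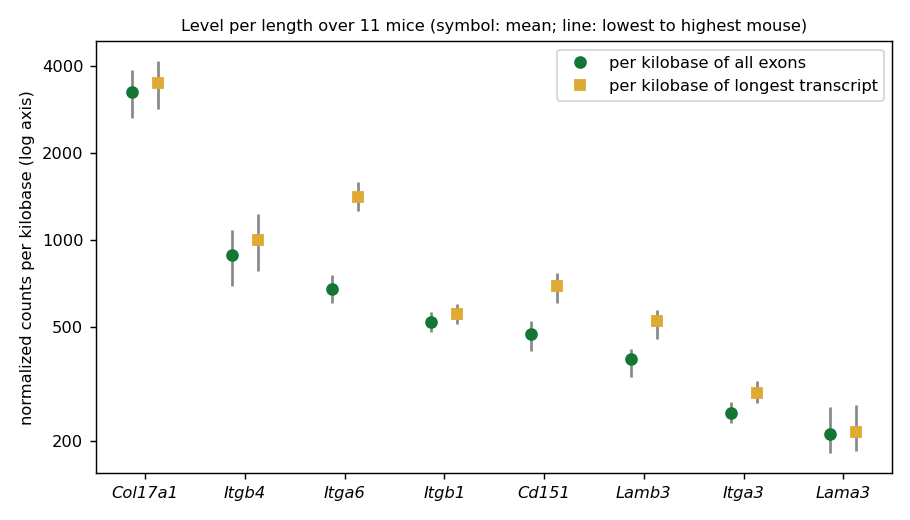
Normalized counts per kilobase (vertical log axis) of the 8 attachment genes, over 11 mice. Symbols are means and lines run from the lowest to the highest mouse, per kilobase of all exons (green circles) or of the longest transcript (yellow squares). Col17a1 is first on both scales, at 3254 on the first, and Itga6 and Itgb4 change places.

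The rest of the attachment pathway was read from lists of partners. Of the 6 genes of the plaque and its keratin anchors, none passed the threshold or had an unadjusted p under 0.05, and 5 differences were positive. Dst, the plakin BPAG1, differed by 0.08 on the log2 scale (standard error 0.12, limma adjusted p = 0.841), and Plec by -0.10 (standard error 0.10, limma adjusted p = 0.757). Plec ranged from 7578 to 12346 normalized counts among PBS mice and from 7819 to 9332 among DT mice, and without PBS 3 and PBS 5 it was lower in DT mice by limma, with a difference of -0.26 and an adjusted p of 0.0829. Krt5 differed by 0.09 (limma adjusted p = 0.655). Krt15, a keratin of basal cells, was 20.0% higher with an unadjusted p of 0.00375 and a limma adjusted p of 0.213.

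Of 23 other basement membrane genes with values, none passed the threshold, 1 was higher and 3 were lower at an unadjusted p under 0.05, and the median difference was -0.01. Hspg2, which encodes the heparan sulfate proteoglycan perlecan, was nearest. It ranged from 483 to 780 normalized counts in PBS mice and from 426 to 542 in DT mice, a difference of -0.42 (standard error 0.10, unadjusted p = 0.000825, limma adjusted p = 0.121). Hspg2 passed the threshold with array weights on all 11 mice, without PBS 3, without PBS 5 and without both, when the difference was -0.57 (limma adjusted p = 0.00541). Lamc3, a γ chain of other laminins, was low at 31.99 normalized counts on average and differed by 0.71 (standard error 0.26, limma adjusted p = 0.291). The other genes lower by the unadjusted p were Frem2 (-0.46) and Lamc1 (-0.16). Without PBS 3 and PBS 5, Lama5, Lamc1, Col7a1 and Agrn were also lower in DT mice, where Col7a1, the anchoring fibril collagen under the hemidesmosome, had a difference of -0.42 (limma adjusted p = 0.0311) against -0.01 with all mice. In that setting 9 genes of all the pathway lists passed the threshold, beside 10.3% of all genes tested (1967). The genes named for it are therefore not read as particular to the pathway.

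Of 19 other integrin subunits with values, none passed the threshold and 3 had a positive difference, with a median of -0.16. Itga2, a collagen receptor subunit, was lower by an unadjusted p of 0.0497, with a log2 difference of -0.19 (limma adjusted p = 0.434), and passed the threshold without PBS 3 and PBS 5 with -0.33 (limma adjusted p = 0.0291). Itgae, which pairs with Itgb7 on intraepithelial lymphocytes, had 22.8 to 67.4 normalized counts after PBS and 10.8 to 42.9 after DT, a difference of -0.70 (limma adjusted p = 0.436). Several integrins of this list belong to leukocytes, whose markers summed to 197 to 489 normalized counts in PBS mice and 120 to 298 in DT mice, and their part in this median was not tested. The 19 genes of the adhesion machinery inside the cell held none past the threshold and 12 positive differences, with Parva, which encodes α-parvin, at 0.12 (unadjusted p = 0.0288, limma adjusted p = 0.362) and Itgb1bp1 at 0.16 (limma adjusted p = 0.438).

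Of 13 enzymes with values that process laminin or the hemidesmosome, none passed. Plau, the urokinase that activates plasminogen, was 15.9% higher in DT mice (unadjusted p = 0.0109, limma adjusted p = 0.275), and it passed the threshold without PBS 3, and without PBS 3 and PBS 5 together, with a log2 difference of 0.32 and a limma adjusted p of 0.0095 in the second case. Mmp14, a membrane-bound metalloproteinase that cuts laminin-332, differed by -0.13 (limma adjusted p = 0.491). Of 11 other tetraspanins, none passed. Cd53, a tetraspanin of leukocytes, differed by -0.85 (standard error 0.25, limma adjusted p = 0.203) and passed without PBS 4, and Tspan31 differed by 0.14 (unadjusted p = 0.0309, limma adjusted p = 0.371). Cd63 was higher in DT mice by 0.30 on the log2 scale when PBS 3 and PBS 5 were left out (limma adjusted p = 0.0169). For Plau and Cd63 alike, passing without these mice is a description, since the same data picked them.

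The genes whose levels over the 11 mice were most like the mean of the 8 attachment genes were read from the other 10011 of these abundant genes. Among the 8 highest were Picalm (r = 0.953), Arl4a (0.949), Tcf12 (0.944), Tbck (0.942), Dis3 (0.936), Cherp (0.933) and Prickle2 (0.931), each as Pearson r without a test since they were picked as the highest. These genes were also among the 100 highest on deviations from the group means. For Picalm the PBS mice had 2651, 2559, 2547, 3031 and 2158 normalized counts, with the same highest and lowest PBS mouse as Itgb4 and Col17a1, and the DT mice had 2843, 2501, 2748, 2466, 2815 and 2897. The values rest on the same libraries and size factors as those of the attachment genes.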

How the data were processed

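RNA of gingival epithelium from 5 PBS and 6 DT mice was sequenced after poly(A) selection. Per the paper's methods, the authors trimmed and filtered reads, used TopHat to align to GRCm38 and htseq-count to count on Ensembl genes, left out genes with a low summed count and divided the counts by DESeq2 size factors; the submitters' processing notes name GRCm39, cutadapt 2.10, TopHat2 2.1.1, HTSeq 2.01 and DESeq2 1.36.0. The deposited values are therefore normalized counts, a unit of their own. Of 55414 genes listed, 36244 have no value. Every value of a mouse was a whole multiple of what 1 read is worth in it (tolerance 0.001 normalized counts), which gives the depth of 17509328 to 24325513 reads. The design assumed that count tests could be run on the recovered reads as alternatives, and they were not run, because the values were treated as normalized.

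Differences were fitted with limma 3.58.1 (R 4.3.3, intensity trend) on log2(normalized count + 1), DT minus PBS, over all 19170 genes, with Benjamini-Hochberg adjustment and a threshold of 0.1. Fold changes on this scale understate those of low genes. Ratios and values relative to keratins were compared by exact permutation over 462 splits, correlations with 100000 permutations. Lengths and positions came from GENCODE M21 (99.7% of genes matched), promoter windows from RefSeq. The labels name the mice as separate samples and no batch. The methods describe male mice and the reporting summary both sexes. Xist was high in all 11 mice, from 7149 to 22725 normalized counts, while the Y-linked Uty and Kdm5d averaged 5.71 and 0.857. Ddx3y and Eif2s3y, also Y-linked, had no value. By these levels the mice read as female, unlike the methods. Sex was not a covariate. The members and lists were chosen with earlier results of these data known. Named from each pathway list were the genes past the threshold or otherwise the 2 with the smallest p, with Dst and Plec by name, and a few genes so chosen are not reported here. Frem2, Lamc1, Lama5, Col7a1, Agrn, Cd63 and Krt15 were named after their values were seen. Alternatives were pseudocounts of 0.5 and 8, a minimum mean of 10 normalized counts, TMM, quantile and keratin scaling, array weights, replicate blocks, leaving out each mouse, and leaving out PBS 3 and PBS 5.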

Additional observations from a re-analysis of the deposited data

How the results depend on the processing

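None of the 8 attachment genes passed the threshold in any of the 21 alternatives run by limma. The unadjusted p of Lamb3 stayed under 0.05 with pseudocounts of 0.5 and 8, the filter on low values, TMM, quantile normalization and array weights, but not with keratin scaling, with either replicate block, without PBS 2, without PBS 5 or without PBS 3 and PBS 5. The number of genes changed was 27 (without DT 5) to 259 (without PBS 5) when a mouse was left out, 49 with scaling to Krt5 and Krt14, 189 with array weights and 1967 without PBS 3 and PBS 5. With a replicate block by title number it was 35, and with a replicate block by library number it was 0, with 1404 genes at an unadjusted p under 0.05. On deviations from the group means, samples with the same number had an r from -0.233 to 0.324. These few values came without a test, so they cannot decide whether the numbers pair the mice. Tests on recovered reads were not run.

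None of the values that follow passed a test, and without PBS 3 and PBS 5 a single ratio or level relative to keratins could not have passed. The difference turned negative with quantile normalization for Col17a1 (-0.0056) and Itgb1 (-0.00305), and with keratin scaling, which moved the median of all genes to -0.06, for Col17a1 (-0.0189), Itgb1 (-0.0359) and Cd151 (-0.0257). Without PBS 3 and PBS 5 it was -0.0874 for Col17a1 and -0.0463 for Itgb4. In the same setting the ratios differed by -0.119 (Itgb4 to Itga6), 0.0257 (Itgb1 to Itga3), 0.112 (Cd151 to Itga3) and 0.0436 (Cd151 to Itga6), and the levels relative to keratins by -0.027 (Itga6), -0.146 (Itgb4), -0.0958 (Itga3), -0.0035 (Lamb3) and 0.0166 (Cd151). The r of Col17a1 and Itgb4 was 0.591, and that of Itga3 and Cd151 turned to 0.113, without the 2 farthest mice. Per kilobase of the longest transcript, Itga6 had 1412, Itga3 296, Itgb1 554, Lamb3 525 and Cd151 693 normalized counts. The causes were not tested.

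Leaving out a mouse in turn gave differences of -0.0352 to 0.103 for Col17a1, -0.0173 to 0.0673 for Cd151, -0.00628 to 0.0401 for Itgb1 and -0.0851 to 0.0485 for Lama3. Relative to keratins it gave -0.0946 to 0.0566 for Col17a1, -0.0639 to 0.0189 for Cd151, -0.0709 to 0.0511 for Itga3, -0.0401 to 0.18 for Itgb4 and -0.158 to 0.00192 for Lama3. The ratio of Cd151 to Itga3 differed by -0.115 to 0.0324 and that of Itgb4 to Itga6 by -0.0409 to 0.0765.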
